A study of Homo sapiens with 8 samples.

Results

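The promoters of 8 heat shock and chaperone genes, HSPA8, HSPA5, HSPH1, HSP90AA1, HSP90AB1, HSPD1, HSPB1 and DNAJB1, were followed through an ATAC-seq fractionation of 293T cells, a line derived from human embryonic kidney that expresses SV40 large T antigen. ATAC-seq reads out open chromatin by letting a transposase insert sequencing adapters into accessible DNA. A member peak was any deposited peak that overlapped the 5 kb on either side of the gene's hg19 start site. The 8 windows held 51 of the 119972 peaks in the 8 lists, and these peaks merged into 8 of the 36845 regions of the series, 1 region per gene. Crosslinked and permeabilised cells were tagmented, incubated with the anion exchange resin Q Sepharose and separated into the unbound flow-through (FT) and washes with 20, 100, 200, 300, 500, 700 and 1000 mM NaCl (G20 to G1000). The labels name no heat shock or other stress for any of the 8 fractions. With 1 library per fraction nothing was replicated, and the tests set single libraries against each other rather than salt conditions. The libraries differ in depth, with 8102 (G700) to 22807 (FT) peaks per list and a recovered background of 0.817 (G200) to 2.36 (FT) reads per kb. The G200 peaks are named G50_200 inside their list, and it is not known whether they come from the 200 mM wash only. The FT peaks are named GL inside their list, and what GL stands for is not known.

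Chaperones bind unfolded proteins and help them fold, hold or move. Heat shock factor 1 induces many of their genes under stress by binding heat shock elements, inverted repeats of the letters GAA, while BiP in the endoplasmic reticulum is induced by the unfolded protein response. Several of these genes are also expressed strongly in unstressed, dividing cells. Among the members, HSPA8 encodes the constitutive cytosolic Hsp70, HSPA5 encodes BiP, HSPH1 encodes a nucleotide exchange factor for Hsp70, and DNAJB1 encodes a J-domain partner that stimulates the Hsp70 ATPase. HSP90AA1 and HSP90AB1 encode the inducible and the constitutive cytosolic Hsp90, HSPD1 encodes the mitochondrial chaperonin Hsp60, and HSPB1 encodes a small heat shock protein.

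The RefSeq promoter table (GRCh38.p14, another build than the peaks) held all 8 genes with 14 start sites, and the 250 bases before each start were searched for motifs on both strands. These 5 sequences are shown because they set the heat shock elements beside peaks of very different strength: HSPA8 had the strongest peaks, DNAJB1 and HSPA5 were called in every list, HSP90AA1 was called weakly in a few lists, and HSPB1 had no peak at its start site. Where a gene has several RefSeq starts, the window with most heat shock elements is printed, and it was not placed on hg19. Capitals mark matches to GAANNTTC or TTCNNGAA and, in HSPA5, the match to the endoplasmic reticulum stress element, CCAAT and CCACG with 9 unspecified bases between. Each runs 5′ to 3′ along its gene and ends at the base before the start.
HSPA8, GRCh38 chr11:123062137-123062386, minus strand: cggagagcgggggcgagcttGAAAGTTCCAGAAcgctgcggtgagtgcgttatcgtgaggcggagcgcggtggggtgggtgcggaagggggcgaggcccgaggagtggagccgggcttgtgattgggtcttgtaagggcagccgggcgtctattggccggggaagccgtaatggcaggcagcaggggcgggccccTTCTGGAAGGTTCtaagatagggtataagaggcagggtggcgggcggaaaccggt
DNAJB1, GRCh38 chr19:14518398-14518647, minus strand: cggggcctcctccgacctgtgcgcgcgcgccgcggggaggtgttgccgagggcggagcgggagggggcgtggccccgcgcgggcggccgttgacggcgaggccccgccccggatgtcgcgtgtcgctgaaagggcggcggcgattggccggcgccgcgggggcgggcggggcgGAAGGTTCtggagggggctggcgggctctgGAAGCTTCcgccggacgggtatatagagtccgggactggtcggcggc
HSPA5, GRCh38 chr9:125241344-125241593, minus strand: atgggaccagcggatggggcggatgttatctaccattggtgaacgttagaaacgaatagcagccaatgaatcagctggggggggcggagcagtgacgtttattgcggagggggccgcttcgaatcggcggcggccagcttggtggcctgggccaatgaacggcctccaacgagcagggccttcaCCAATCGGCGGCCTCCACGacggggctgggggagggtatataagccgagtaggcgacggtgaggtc
HSP90AA1, GRCh38 chr14:102087045-102087294, minus strand: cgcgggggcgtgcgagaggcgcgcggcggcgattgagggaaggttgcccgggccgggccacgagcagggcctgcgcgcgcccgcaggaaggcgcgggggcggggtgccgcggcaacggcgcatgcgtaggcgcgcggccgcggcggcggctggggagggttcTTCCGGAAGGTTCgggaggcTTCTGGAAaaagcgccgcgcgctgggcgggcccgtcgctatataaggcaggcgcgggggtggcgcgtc
HSPB1, GRCh38 chr7:76302423-76302672, plus strand: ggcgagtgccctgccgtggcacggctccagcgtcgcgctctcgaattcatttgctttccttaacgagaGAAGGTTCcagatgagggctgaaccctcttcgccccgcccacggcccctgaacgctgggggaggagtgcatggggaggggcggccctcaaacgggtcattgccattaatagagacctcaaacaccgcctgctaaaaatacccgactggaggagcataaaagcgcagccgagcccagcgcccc

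Heat shock elements were present in 6 of the 8 genes, in at least 1 window each, and in 6 of the 14 windows, against 11.6% of the 35116 promoter windows in the table. The 3-unit forms, in which GAANNTTC is followed by NN and GAA or TTCNNGAA by NN and TTC, contain the 2-unit match and were in 1 window each of HSPA8, HSP90AA1, HSP90AB1 and HSPD1, against 0.441% of all windows. In the HSPA8 window 1 such match lay from 230 to 218 bases before the start and the other from 55 to 43 bases before it. HSPH1 and HSPA5 had no match to the 2-unit letters in their single windows. The stress element of HSPA5, from 66 to 48 bases before the start, was the only one among the members, and 0.074% of all windows held one. The CCAAT box (CCAAT) was found in 6 of the 14 windows, from 4 genes, against 32.0% of all windows, and the GC box (GGGCGG) in 13 of the 14, from 7 genes, against 42.6%. The cyclic AMP response element core (TGACGTCA) was in 1 of the 14, from HSP90AB1 (1.65% of all windows), and the letters TATAAA were in 0 of the 14 (10.7%). Only these exact letters were counted. Close variants stand near the end of printed windows: TATATAA in HSPA5 and HSP90AA1, TATAAG in HSPA8 and TATATAG in DNAJB1. The 0 therefore does not mean that TATA-like letters are absent. The G and C content of the member windows ran from 50.4% in HSPH1 to 78.4% in 1 of the DNAJB1 windows, against a median of 58.0% over all windows. The HSPH1 window and 1 HSP90AB1 window (56.4%) lay below that median. A match is a description of the letters, and no binding was measured.

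Open chromatin was called at the promoters of 5 of the 8 genes in every fraction: HSPA8, HSPA5, HSPH1, HSPD1 and DNAJB1. Over the whole series, 11.5% of merged regions were called in all 8 lists, and start sites of other genes were not analysed here, so the 5 of 8 has no promoter background. HSP90AB1 was called in 6 lists, HSP90AA1 in 4 and HSPB1 in 1. Of the 8 members, 7 had a peak in each of FT, G20, G200, G300 and G1000, 6 in G100, and 5 in each of G500 and G700. Of all merged regions, FT called 61.6%, G20 52.5%, G100 35.8% and G200 43.2%, while G300 called 53.3%, G500 28.1%, G700 21.9% and G1000 27.7%. The lists with 5 members, G500 and G700, were among the 3 with the smallest share of all regions called, and G1000, the other one, held 7 members. All 51 peaks reached within 1 kb of their start site, and the nearest peak beyond the window was 7.10 kb from a start site (HSPA8, in G20, with a −log10 q of 3.00, where q is the adjusted p of the peak call).

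**Figure D1:**
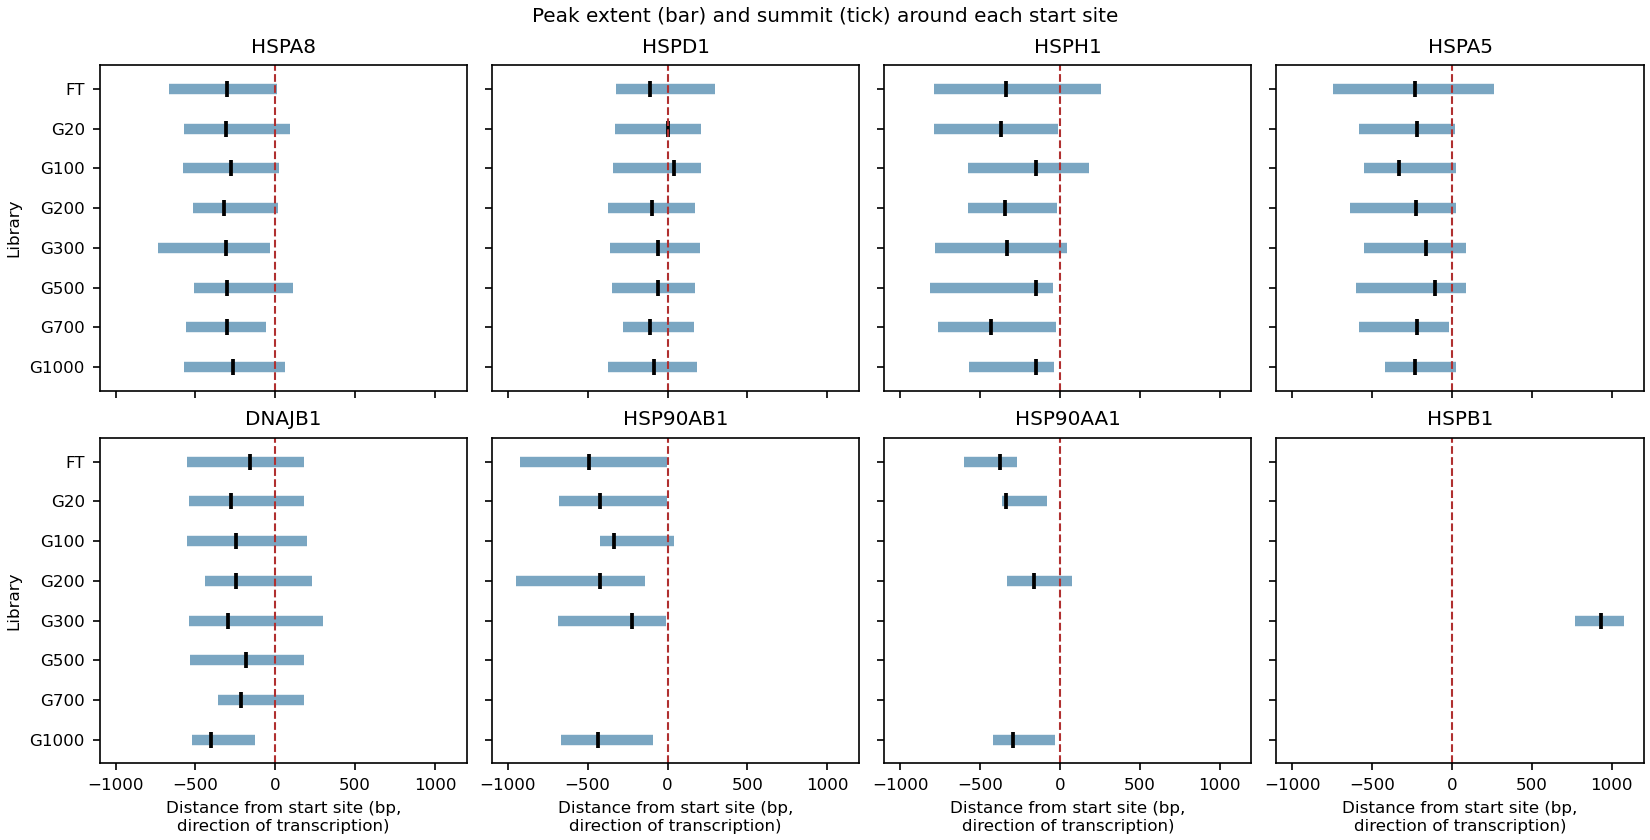
Extent of each called peak (bar) and its summit (tick) in base pairs from the hg19 start site (dashed line at 0), along the direction of transcription, with 1 row per library from FT to G1000 and 1 panel per gene; an empty row means no peak. Nearly all bars reach upstream of the start, HSPD1 peaks straddle it, and the single HSPB1 peak lies downstream.

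The summits were upstream of the start site in 48 of the 51 peaks. Among the 5 genes called in every list, HSPA8 had the summit that moved least, 262 to 318 bp upstream in the 8 lists, a spread of 56 bp. Its peaks spanned chromosome 11 from 122932732 to 122933581 when merged, and the stretch from 122932901 to 122933350 was covered by the peak of every library. Of its 8 peaks, 6 also covered the start site itself.

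HSPH1 summits fell at more than 1 place. They were 335 bp upstream in FT, 367 bp in G20, 346 bp in G200, 331 bp in G300 and 431 bp in G700. In G100, G500 and G1000 the summit was at the same base, 152 bp upstream. The merged HSPH1 region ran on chromosome 13 from 31735860 to 31736928, and only 3 of its 8 peaks covered the start site itself. The 3 libraries that share a base are not neighbours in the salt order. Their HSPH1 peaks rest on 20 (G100), 19 (G500) and 13 reads (G1000), against 29 (G200) to 39 (FT) in FT, G20, G200 and G300. G700 also had only 13 reads. Whether the summit position differs beyond counting error was not tested.

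HSPA5 summits were 110 bp (G500) to 333 bp (G100) upstream, with a median of 224 bp, in a region on chromosome 9 from 128003347 to 128004356. RefSeq places the divergent transcript HSPA5-DT as the next gene upstream of HSPA5. It also places the noncoding genes LOC124902775 and LOC105370148 within 1 kb upstream of HSPA8 and HSPH1. TECR and WDR20 overlap the outermost RefSeq 5′ ends of DNAJB1 and HSP90AA1. Peaks were assigned by position only, so an upstream summit need not belong to the member alone. DNAJB1 summits were 161 bp (FT) to 401 bp (G1000) upstream, with a median of 245.5 bp, and 7 of its 8 peaks on chromosome 19, from 14628899 to 14629753, covered the start. The Hsp90 genes also opened upstream of the start. HSP90AB1 summits were 222 bp (G300) to 491 bp (FT) upstream on chromosome 6, within 44213899 to 44214887, and G20 and G200 shared the base 421 bp upstream. Only the G100 peak of HSP90AB1 reached over the start site, and RefSeq lists 3 starts for that gene. The 4 HSP90AA1 summits were 162 bp (G200) to 372 bp (FT) upstream on chromosome 14, within 102553293 to 102553970.

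HSPD1 peaks straddled the start. All 8 of them covered the start site, on chromosome 2 within 198364472 to 198365144, and the summits ran from 112 bp upstream (G700) to 41 bp downstream (G100). In RefSeq the next gene upstream of HSPD1 is HSPE1-MOB4, a readthrough locus that begins with HSPE1, the gene of the partner co-chaperonin Hsp10, which HSPD1 is known to adjoin head to head. The single HSPB1 peak, on chromosome 7 from 75932644 to 75932952, had its summit 930 bp downstream of the start and did not touch the promoter.

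The genes called in the fewest lists, HSP90AA1 and HSPB1, had the narrowest peaks, and the HSPB1 peak lay outside the promoter. HSP90AB1, also missing from some lists, did not have narrow peaks. Median widths over the lists in which a gene was called were 766.5 bp for HSPH1, 715 bp for DNAJB1, 677.5 bp for HSP90AB1, 625.5 bp for HSPA8, 621 bp for HSPA5, 547.5 bp for HSPD1, 361.5 bp for HSP90AA1 and 309 bp for HSPB1. The median width over all peaks of a list was between 418 bp in G700 and 527 bp in FT. Among regions called in all 8 lists, which are wider, the 5 members that belong to them had 20 of their 40 peaks above the median width of such regions in the same library.

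**Figure D2:**
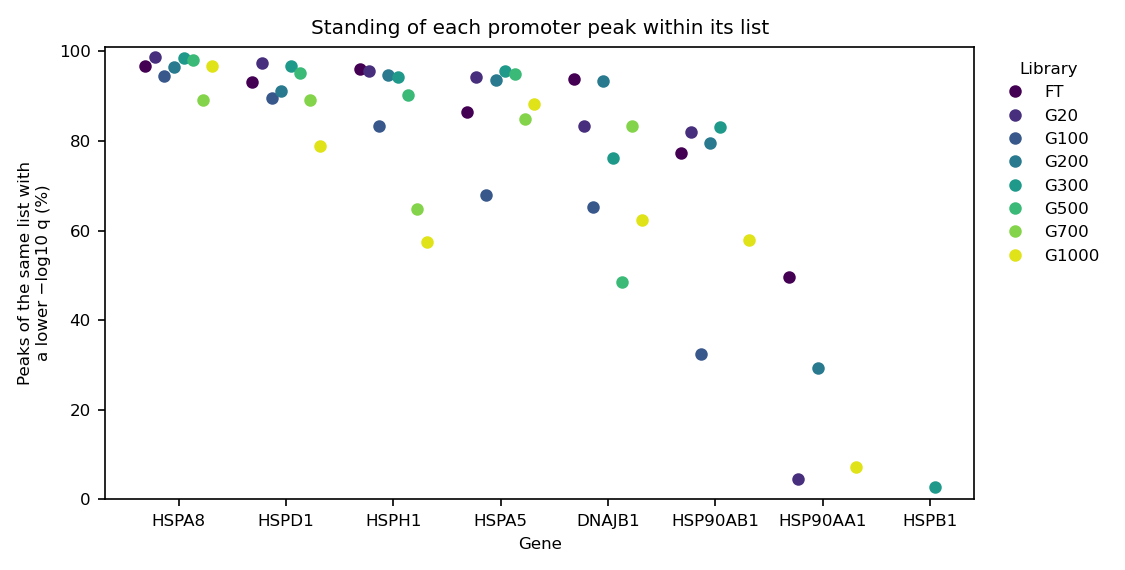
Share of the peaks of the same list that had a lower −log10 q than the gene's peak (percent, vertical axis), for each gene (horizontal axis) and library (colour, FT to G1000). HSPA8 stands at 89.1% or more in every library, while HSP90AA1 stands at 49.6% or less and HSPB1 at 2.68%.

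The −log10 q of a peak, a value of the authors' peak caller, ranks peaks within a list. HSPA8 had the strongest member peak in 7 lists and HSPD1 in G700. The −log10 q of HSPA8 was highest in G20 and G300, and the values were 24.6 in FT, 40.0 in G20 and 17.9 in G100, then 23.9 in G200 and 37.0 in G300, and at high salt 23.3 in G500, 11.4 in G700 and 20.4 in G1000. Between 89.1% (G700) and 98.7% (G20) of the peaks in the same list were weaker. In G500 the HSPA8 promoter ranked 206 of 10384 peaks.

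HSPD1 stood above 78.8% (G1000) to 97.3% (G20) of its list, with a median of 92.1% over the lists. For HSPH1 the standing was between 57.5% (G1000) and 96.1% (FT), with a median of 92.2%, and for HSPA5 between 68.0% (G100) and 95.5% (G300), with a median of 91.0%. DNAJB1 varied most among the 5, between 48.5% in G500 and 93.9% in FT, with a median of 79.8%. The 6 lowest of the 40 standings were those of 1 library for HSPA5 (G100), 2 for HSPH1 (G700 at 64.9% and G1000) and 3 for DNAJB1 (G100 at 65.2%, G500 and G1000 at 62.3%). All of them fall in the shortest lists, with 8102 (G700) to 13244 (G100) peaks against 15988 (G200) or more in the others. A standing depends on how many weak peaks a list holds, so these differences between lists cannot be read as differences at the genes. Of the 40 peaks of these 5 genes, 31 had a higher −log10 q than the median region called in all 8 lists in the same library.

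HSP90AB1 stood close to DNAJB1, and HSP90AA1 and HSPB1 stood lower. For HSP90AB1 the −log10 q was 10.7 in FT, 13.2 in G20 and 3.98 in G100, then 10.5 in G200, 13.1 in G300 and 5.98 in G1000, and a median of 78.4% of the list was weaker. HSP90AA1 had 5.85 in FT, 2.16 in G20, 3.72 in G200 and 2.31 in G1000, and a median of 18.2% was weaker. The HSPB1 peak in G300 had 1.61, close to the smallest value in that list, 1.31, and only 2.68% of the list was weaker.

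Because a −log10 q grows with depth, levels were compared with the reads at the summit, recovered from the printed fold enrichment and p-value. These were scaled to the reads that each library had in 4098 ordinary regions of all 8 lists (placed chromosomes, away from chromosome ends and from each chromosome's longest peak-free stretch). Scaled this way, HSPA8 had the highest median of the 8 genes, 38.4 scaled reads.

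HSPA8 had 32.9 scaled reads in FT, 42.2 in G20 and 33.9 in G100, then 35.1 in G200 and 42.7 in G300, and at high salt 46.6 in G500, 31.3 in G700 and 41.8 in G1000. The highest was 1.49 times the lowest, and G500, G300, G20 and G1000 were higher than the other 4 libraries. HSPD1, the mitochondrial chaperonin, had 25.6 in FT, 36.7 in G20 and 26.0 in G100, then 26.1 in G200 and 30.5 in G300, and at high salt 35.9 in G500, 28.2 in G700 and 22.2 in G1000. Its high libraries were G20 and G500 and its lowest was G1000. In all 8 libraries HSPA8 had more reads than HSPD1, with a median ratio of 1.30.

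HSPH1 had 28.5 scaled reads in FT, 28.1 in G20 and 22.6 in G100, then 29.1 in G200 and 26.7 in G300, and at high salt 25.3 in G500, 20.3 in G700 and 17.0 in G1000. Its lowest values were those of the 2 highest salt washes. HSPA5 had 20.5 in FT, 24.2 in G20 and 16.9 in G100, then 29.1 in G200 and 25.9 in G300, and at high salt 30.6 in G500, 25.0 in G700 and 23.5 in G1000. Its low libraries were FT and G100 and not the high salt ones. HSPD1 exceeded HSPH1 in 6 of 8 libraries, and HSPH1 exceeded HSPA5 in 4, equalled it in 1 and was below it in 3. HSPH1 was above HSPD1 by few reads, 39 against 35 in FT and 29 against 26 in G200. Genes were not tested against each other within a library, so whether the order of these 3 genes changed beyond counting error is not known.

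DNAJB1, the Hsp70 partner, had 24.1 scaled reads in FT, 16.4 in G20 and 14.7 in G100, then 25.1 in G200 and 14.5 in G300, and at high salt 13.3 in G500, 21.9 in G700 and 15.7 in G1000. FT, G200 and G700 were high and the other 5 libraries lay close together between 13.3 and 16.4. HSP90AB1 overlapped this range, with 16.8 in FT, 18.8 in G20 and 11.3 in G100, then 17.1 in G200, 16.8 in G300 and 14.4 in G1000. It was above DNAJB1 in 2 of the 6 libraries that called both and below it in 4, and HSPA5 was above HSP90AB1 in all 6.

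HSP90AA1 had 10.2 scaled reads in FT (14 reads), 6.25 in G20 (8 reads), 7.02 in G200 (7 reads) and 7.83 in G1000 (6 reads). DNAJB1 had more reads than HSP90AA1 in all 4 of these libraries, with a median ratio of 2.49. Within the Hsp90 pair the constitutive gene HSP90AB1 was above the inducible gene HSP90AA1 in all 4 libraries that called both, with a median ratio of 2.13. The HSPB1 peak rested on 8 reads, 6.09 after scaling.

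**Figure D3:**
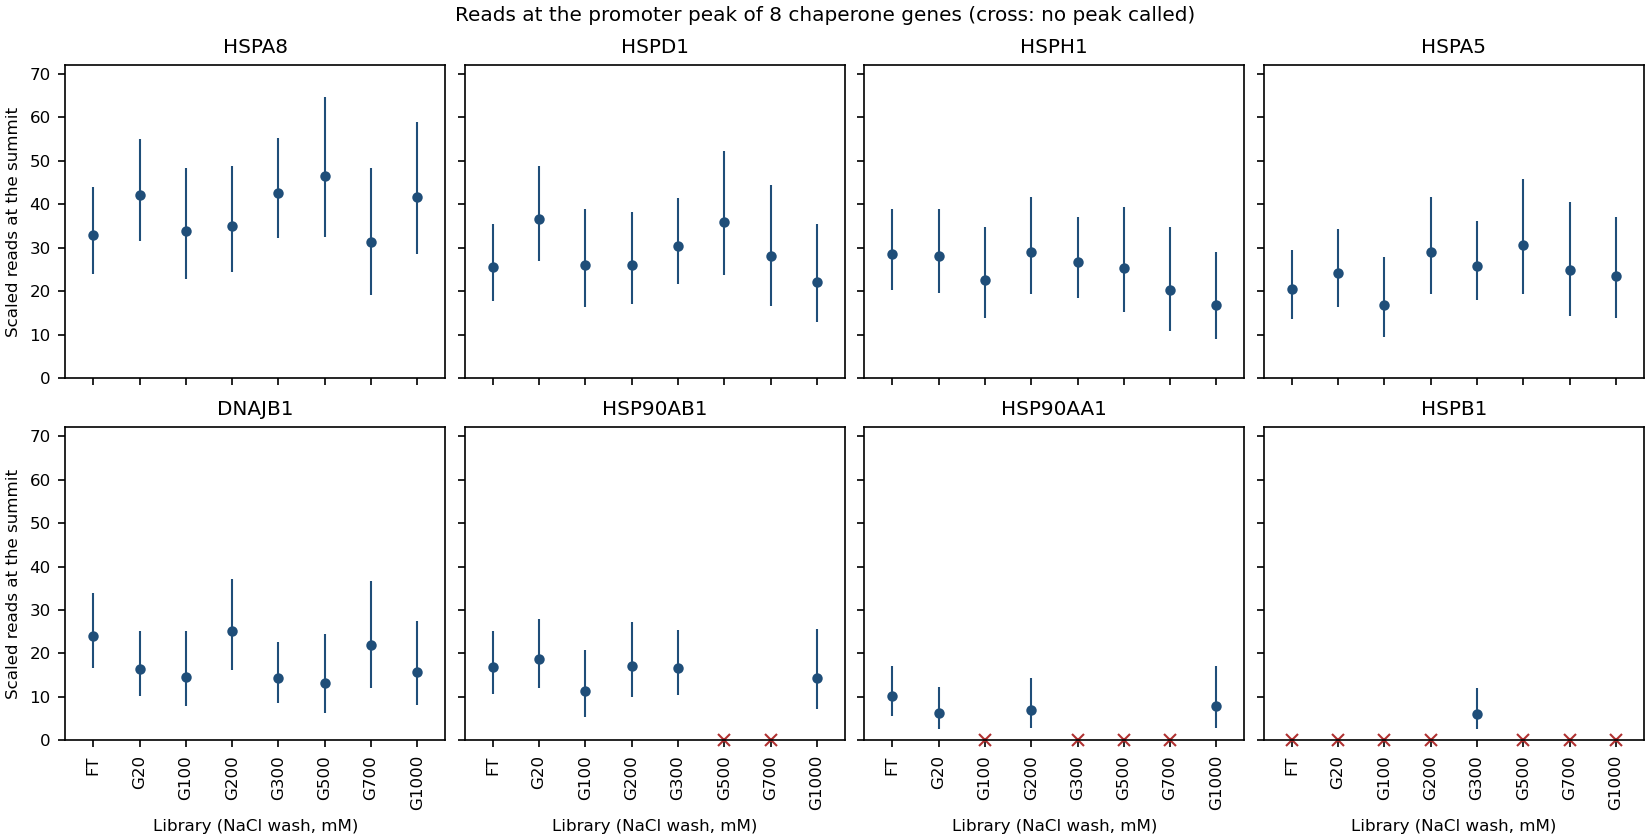
Scaled reads at the peak summit (vertical axis, linear) of each gene in the 8 libraries (horizontal axis, FT and the NaCl washes G20 to G1000), with exact 95% Poisson intervals that cover counting error only; a cross at 0 marks a library with no peak called, not a measured 0. HSPA8 lies between 31.3 and 46.6, and HSP90AA1 lies at or under 10.2 where it was called.

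For the genes missing from some lists, the reads that their median level would give at the depth of each such library were computed. That median comes from the libraries that called the gene alone, so it is biased upward and only describes what a peak of that size would be elsewhere. HSP90AB1 was not called in G500 and G700. At its median level of 16.8 scaled reads it would have had 12.6 reads in G500 and 10.7 in G700, and 64.8% and 55.1% of the called peaks of those lists had no more reads than that. HSP90AA1 was not called in G100, G300, G500 and G700, and its median level of 7.43 scaled reads corresponds to 6.58 reads in G100, 9.75 in G300, 5.58 in G500 and 4.75 in G700. The share of called peaks with no more reads was 33.1% in G300, 14.5% in G100 and 7.41% in G500, and in G700 it was 178 of 8102 peaks, so these levels range from common to rare among called peaks. For HSPB1 the G300 level corresponds to between 3.89 reads in G700, where 0 called peaks were that low, and 8.33 in FT. A peak call also depends on the local background and on width, so a missing peak sets no upper limit on the reads.

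With reads scaled on ordinary regions, no difference between libraries was detectable at this depth at any of the 5 promoters called throughout. Each library was tested against the other 7 together in all 4220 regions of all 8 lists with recovered reads, by a two-sided exact binomial test with Benjamini-Hochberg adjustment across the 33760 tests. A gene had to be called in every list to be tested, so HSP90AB1, HSP90AA1 and HSPB1 were left out. That filter also limits how low a tested promoter could be in any library. Of the 40 member tests 0 passed at an adjusted p of 0.05, against 0.578% of all tests (195), and 0 of the 40 had an unadjusted p under 0.05, against 5.55% of all tests. By library, the share of regions that passed was 0.9% for FT, 0.308% for G20, 0.403% for G100 and 1.85% for G200, and 0.308% for G300, 0.237% for G500, 0.379% for G700 and 0.237% for G1000. The ratios to the expected reads ran from 0.643 (HSPH1 in G1000) to 1.44 (DNAJB1 in G200). With 10 to 56 reads per promoter and library, the 95% intervals, exact and for counting error only, all included 1. They reached from 0.483 to 1.77 over the 8 libraries for HSPA8, which had the most reads, and from 0.330 to 2.23 for DNAJB1, which had the fewest of the 5 genes.

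The lowest unadjusted p was that of HSPD1 in G20, with 1.33 times the expected reads (interval 0.942 to 1.84, exact binomial p = 0.0891, adjusted p = 1.00). DNAJB1 in FT had 1.40 times (0.923 to 2.08, exact binomial p = 0.0992, adjusted p = 1.00) and in G200 1.44 times (0.896 to 2.23, exact binomial p = 0.104, adjusted p = 1.00). The other high library of DNAJB1, G700, had 1.21 times (0.645 to 2.11).

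The sum of FT, G20 and G100, the low salt side, was then set against the sum of G500, G700 and G1000, the high salt side. HSPH1 had 1.29 times the reads expected on the low side over the high side (95% interval 0.895 to 1.88), from 95 and 45 reads. DNAJB1 had 1.14 times (0.747 to 1.75), from 67 and 36 reads, and without FT the ratio was instead 0.941. HSPD1 had 1.03 times (0.748 to 1.44), HSPA8 had 0.905 times (0.685 to 1.20) and HSPA5 had 0.793 times (0.554 to 1.14). None of the 5 passed the exact binomial test (adjusted p = 1.00 in each; 0 of 5 unadjusted p under 0.05), against 0.332% of all 4220 regions with adjustment and 4.93% without. The directions were thus mixed among the members, and every interval included 1.

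**Figure D4:**
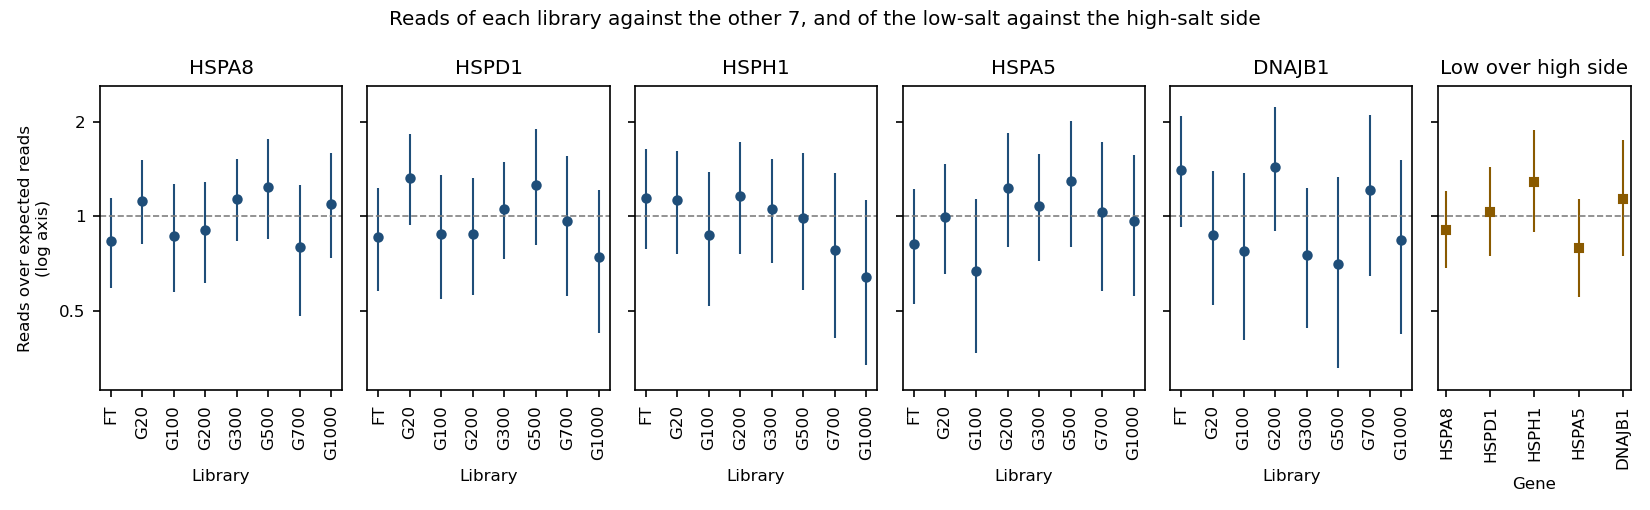
Reads over expected reads (log axis) of each library against the other 7 for the 5 genes called in all lists, and, in the last panel, of FT, G20 and G100 together over G500, G700 and G1000 together for each of the 5 genes; bars are exact 95% intervals for counting error only and the dashed line marks 1. All intervals include 1, and the ratios run from 0.643 to 1.44 across the library panels.

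With expected shares taken from each library's recovered background in place of ordinary regions, 4 of the 40 member tests passed, against 4.96% of all tests. G200 was then higher at DNAJB1 (2.45 times, interval 1.52 to 3.79, exact binomial test, adjusted p = 0.00947), at HSPA5 (2.10 times, 1.36 to 3.13, exact binomial test, adjusted p = 0.0185) and at HSPH1 (1.98 times, 1.29 to 2.94, exact binomial test, adjusted p = 0.0341), and FT was lower at HSPA8 (0.597 times, 0.425 to 0.822, exact binomial test, adjusted p = 0.0254). G200 was also above its expected reads at HSPA8 (1.54 times) and HSPD1 (interval 0.957 to 2.26), so at every gene tested. FT was also below at HSPH1 (0.822 times), HSPD1 (0.615 times) and HSPA5 (0.586 times), but not at DNAJB1. These further tests did not pass. G200 has the lowest and FT the highest recovered background of the 8 libraries. That background sets the expected share at every region, so the 4 tests cannot separate a difference at a gene from an offset of the whole library.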

How the data were processed

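Peak lists of 8 libraries were analysed. Per the submitters' processing notes, the tools were HOMER, MACS2 2.2.1 and Bowtie2 2.2.6 and the builds hg19 and mm10. Parameters, read filters and any transposase shift were not given in the sources used here. Each list deposited by the authors holds, per peak, a fold enrichment ratio, a whole-number score (not used further), the −log10 of p and of q, and the summit; these are the authors' values and only rank or describe peaks within a list. The members and lists were chosen with earlier results of these data known. Whole-number pileups (reads; fragments if paired) were recovered by solving the deposited fold and −log10 p for pileup and background (match within 0.001), which gave a single solution for 99.3% to 100% of a list's peaks and for all 51 member peaks. The method was tested on simulated data made with the same formulas and counting error only. That checks the calculation, not whether real libraries vary by more than counting error. Peaks sharing at least 1 bp were merged across lists. Distances follow the strand in RefSeq, whose coordinates are GRCh38.p14 and were not mixed with hg19. All 8 members are named; the other chaperone genes planned were not located, since no hg19 annotation was used. Tests used SciPy 1.17.1. Alternatives were other windows, a −log10 q minimum of 5, lists of equal length (8102 peaks), other scalings and omitted libraries. Depth limits precision to counting error, and PCR duplicates may add to it.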

Additional observations from a re-analysis of the deposited data

How the results depend on the processing

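The 5 genes called in all 8 lists stayed 5 with a window of 1 kb, with a −log10 q of at least 5, with lists of equal length, without G200 and without FT. When the peak had to cover the start site, only HSPD1 was still called in all 8 lists. HSPA8 then kept 6 lists, HSPA5 and DNAJB1 kept 7 each and HSPH1 kept 3. Counts per library moved by more than 1.5 times only when the peak had to cover the start site itself, with 4 members in G20, 4 in G300, 2 in G700 and 3 in G1000. The weaker calls did depend on the other settings. With lists of equal length, HSP90AA1 and HSPB1 were not called in any list and HSP90AB1 was no longer called in G100. At a −log10 q of at least 5, HSP90AA1 was called in FT only, HSPB1 in no list, and HSP90AB1 again not in G100. Ranking by fold enrichment in place of −log10 q gave a median standing of 94.7% for HSPA8, 91.5% for HSPA5, 89.1% for HSPD1, 72.3% for HSP90AB1, 21.2% for HSP90AA1 and 0.999% for HSPB1. Member tests of 1 library against the other 7 numbered 4 past the threshold with background scaling. With ordinary-region scaling they numbered 0 with all libraries, 0 without G200 and 0 without FT. Background scaling was not repeated with a library left out. Taking the summit of the strongest peak repeats the same test for these genes, which have 1 peak per library. The low over high ratio turned its direction at HSPD1 with background scaling (0.972) and at DNAJB1 without FT (0.941); neither was past the threshold, and the cause was not tested. No paired analysis was possible because each fraction has 1 library. Promoters rest on 6 to 56 reads per library, which limits every comparison to differences well above counting error.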

Other observations

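The recovered local background at HSPA8 was 4.66 reads in FT and 1.67 in G700, against genome backgrounds of 0.662 and 0.248. The fold enrichment given by the authors, 8.13 in FT and 7.85 in G700, is over that local value, with the same constant added to reads and background. It is thus not the plain ratio of the 45 reads in FT or the 20 in G700 to that background. The peak nearest to DNAJB1 beyond the 5 kb window, 10.7 kb upstream of the start site, had a −log10 q of 31.3 in G20, above the 13.9 of the DNAJB1 promoter in the same list. HSPA5 and HSPH1 were the most isolated members, with the nearest other peak of any list 20.0 kb and 37.7 kb from the start site.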
